A study of Homo sapiens with 38 samples.

Results

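Cytoplasmic RNA of HCT116 cells lacking AGO1 was compared with cytoplasmic RNA of HCT116 cells lacking both AGO1 and AGO2. By label, the genotypes differ in the loss of AGO2 in an AGO1-null background. HCT 116 is a human colon cancer cell line that grows as an epithelial culture, and all lines were kept in McCoy's 5a medium with serum. The members were chosen by their labels: the 3 cytoplasmic libraries of genotype AGO1-/- (passages 6, 7 and 8) and the 3 of genotype AGO1-/-, AGO2-/- (passages 9, 10 and 11), together 6 of the 38 samples of the series. Both groups are AGO1-null by label, and no drug or transfection separates them. The labels do not say whether the double knockout was made from this AGO1 knockout line. The remaining samples include the nuclear fractions of the same lines. Others are wild-type cells (passages 27 to 29), an AGO2 knockout line (passages 8 to 10) and an AGO1/2/3 knockout line. The last 8 are libraries of an immunoprecipitation experiment (eCLIP), both precipitates and inputs, and were not used here. Each knockout genotype was 1 gene-edited line. The 3 libraries of a group were different passages, successive in all groups but the AGO1/2/3 knockout. Genotype, clone and passage therefore cannot be told apart, and p-values measure the spread between these cultures.

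Argonaute proteins carry microRNAs, short RNAs that pair through bases 2 to 8 (the seed) with sites in the 3′ untranslated region (UTR) of messenger RNAs. The complex recruits a TNRC6 scaffold protein, which brings in the CCR4-NOT deadenylase and the decapping enzymes, so that the target is translated less and degraded sooner. Human cells have 4 Argonautes, and AGO2 is the one best known for cutting a fully paired target. In epithelial cells the pathway is known above all through let-7, the miR-17 family, miR-21 and the miR-200 family, whose textbook targets include regulators of growth, of TGF-beta signalling and of the mesenchymal state.

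The authors' tables list, for every transcript, an estimated number of reads and a TPM value, which is scaled for transcript length and library total. Estimated reads were summed per gene. The 6 libraries held 68161346 to 79731793 estimated reads, so depth differed little between the groups. Levels below are CPM, the reads of a gene scaled to a fixed library total after TMM normalization, and compare 1 gene between libraries but are not corrected for length. Differences are log2 fold changes of the libraries labelled AGO1/2 knockout over those labelled AGO1 knockout, and a gene was called when its Benjamini-Hochberg adjusted p in edgeR's quasi-likelihood test was at most 0.05. The numbers of genes given for a list are those that passed the filter on low counts. "Rose" and "fell" are used of called genes alone, and mean higher or lower in the libraries labelled AGO1/2 knockout. In bulk RNA, fewer cells that carry a transcript and less of it per cell cannot be told apart. The summed level of 8 colon epithelial markers was 2020 to 2350 CPM in the AGO1 and 1960 to 2310 CPM in the AGO1/2 libraries. No marker was at 0. Sums over markers, here and below, were scaled to the library total without TMM. Of the 8 markers, 5 passed the filter on low counts, of which 2 fell (CDH1 and EPCAM, described below) and 0 rose, so the sum does not describe each member.

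AGO2 RNA did not check the AGO2 edit. It stood at 407, 403 and 388 CPM in the 3 libraries labelled AGO1 knockout and at 473, 534 and 469 CPM in those labelled AGO1/2 knockout. Every AGO1/2 library was above every AGO1 library (log2 fold change 0.30, standard error 0.0722, adjusted p = 0.00272 by edgeR's quasi-likelihood test). In the AGO2 knockout line, made from cells that keep AGO1, AGO2 RNA was instead lower than in wild-type cells, with means of 250 and 397 CPM (log2 fold change -0.67, adjusted p = 2.63e-05), and the 2 changes differed (0.97, adjusted p = 6.39e-06). TPM weights each transcript by its length and has no TMM scaling. On that scale AGO2 went the other way in the AGO1/2 libraries, from 32.3 ± 2.64 to 28.9 ± 0.333 TPM (SD, n = 3 each). The TPM groups did not overlap, and the exact two-sided permutation p of 0.1 is the smallest that 3 against 3 libraries can give. The limma test on log2(TPM + 1) made no call (-0.15, adjusted p = 0.239), and the median over all genes on that scale was -0.099. Within AGO2, the MANE Select transcript, the standard coding form, was at 15.9 ± 0.143 and 16.9 ± 0.897 TPM, and a transcript annotated for nonsense-mediated decay at 9.79 ± 0.926 and 6.4 ± 0.575 TPM. Since an edit can remove the protein and leave the RNA, the genotype of the double knockout is taken here from its label.

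AGO1 RNA was low in both groups, which are both labelled AGO1-null. It was at 13.3, 14.3 and 13.2 CPM in the AGO1 libraries and 15.8, 17.3 and 17.1 CPM in the AGO1/2 libraries, against a mean of 153 CPM in wild-type and 173 CPM in AGO2 knockout cells. The groups did not overlap (log2 fold change 0.30, adjusted p = 0.000881), but in TPM the means were 0.886 ± 0.0157 and 0.92 ± 0.078 (exact permutation p = 0.7). AGO3 was at 68.5, 72.0 and 70.5 CPM against 83.5, 88.8 and 91.0 CPM (0.32, adjusted p = 0.00202), and in TPM at 8.34 ± 0.388 and 8.48 ± 0.637 (exact permutation p = 0.7). AGO4 was at 9.03, 11.5 and 13.2 CPM against 19.7, 20.5 and 25.9 CPM. Its difference was the largest of the 4 (log2 fold change 0.97, adjusted p = 7.83e-05), its groups overlapped on neither scale, and it was also higher in the nuclear libraries (0.70).

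**Figure D1:**
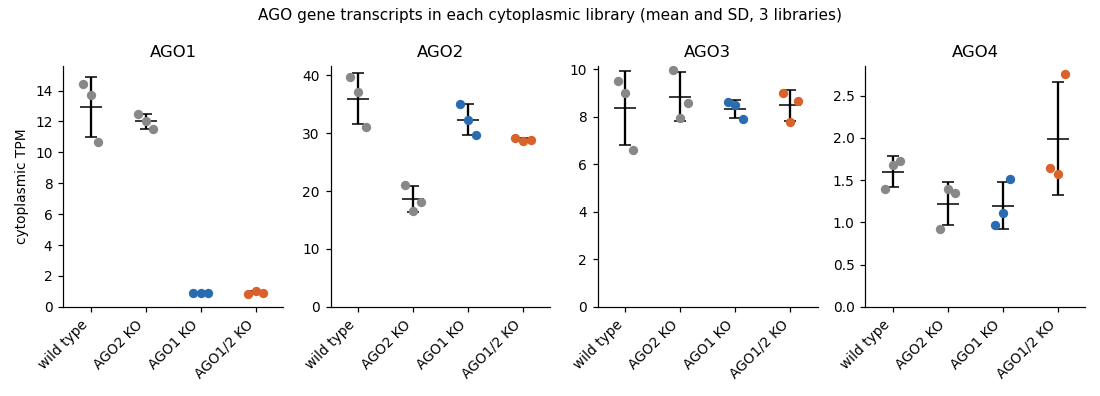
TPM of AGO1, AGO2, AGO3 and AGO4 in each cytoplasmic library of wild-type, AGO2 knockout, AGO1 knockout and AGO1/2 knockout cells, with points for libraries and bars for the mean and SD (n = 3). AGO1 is at 12.9 TPM in wild-type cells and at 0.886 and 0.92 TPM in the 2 AGO1-null lines, while AGO2 is at 18.5 TPM in the AGO2 knockout and 28.9 TPM in the AGO1/2 knockout line.

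More genes differed between the groups than did not. Of 17605 genes, 4899 rose (27.8%) and 4656 fell (26.4%), together 9555 (54.3%), and for 10971 genes (62.3%) the libraries of the groups did not overlap, 31.3% with the AGO1/2 libraries above and 31.0% below. Most changes were small, with a median absolute log2 fold change of 0.41 and a median of 0.0. A change of at least 1 log2 unit was called in 1500 rising (8.52%) and 1025 falling genes (5.82%), and a change of at least 3 in 198 (1.12%) and 169 (0.96%). Protein-coding genes were called more often than long noncoding RNA genes: 8389 of 13620 (61.6%; 4300 or 31.6% rose, 4089 or 30.0% fell) against 782 of 2501 (31.3%; 422 or 16.9% rose, 360 or 14.4% fell). These shares are the background for every count of named genes that follows.

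The balance between rising and falling genes depended on the scale. On log2(TPM + 1), limma called 9109 genes, with 27.2% of them higher where edgeR had 51.3%, and the median gene moved by -0.099. List medians on log2(TPM + 1) given below stand beside this -0.099, not beside 0.0. With a smaller pseudocount, log2(TPM + 0.1), 9325 genes were called and the median was -0.214. Mitochondrial genes took 8.27, 8.23 and 7.46% of the reads in the AGO1 libraries and 15.5, 18.2 and 12.7% in the AGO1/2 libraries, and the 10 most abundant genes 17.1 to 17.9% and 23.1 to 26.9%. Leaving mitochondrial and small structural RNA genes out before scaling gave 4897 rising and 4618 falling genes. The part of the mitochondrial share in the TPM shift was not tested.

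The genes that rose most were nearly silent in the AGO1 knockout line. DCLK1, a microtubule-associated kinase known as a marker of tuft cells, was at 0.742, 0.548 and 0.814 CPM in the AGO1 libraries and at 77.9, 96.7 and 62.4 CPM in the AGO1/2 libraries (112-fold, log2 fold change 6.80, adjusted p = 1.32e-10, chr13:35768652-36131382 on GRCh38, minus strand). TM4SF18, a tetraspan membrane protein, went from 0.0405, 0.0445 and 0.0388 CPM to 10.3, 17.9 and 13.3 CPM (322-fold, adjusted p = 1.85e-10). SLC2A3, the glucose transporter GLUT3, went from 0.958, 0.963 and 1.05 CPM to 63.0, 103 and 41.3 CPM (69.7-fold). In each of these genes the lowest AGO1/2 library was many times above the highest AGO1 library. PRKAA2, a catalytic subunit of the energy-sensing kinase AMPK, had 0.216, 0 and 0 CPM against 7.55, 8.68 and 8.79 CPM (111-fold). TENM3, a teneurin adhesion receptor, had 0.108, 0.0741 and 0.129 CPM against 7.35, 7.34 and 6.72 CPM (66.9-fold). MYBPH, a myosin-binding protein of muscle, had no read in any AGO1 library and 2409 in the AGO1/2 libraries, where it was at 11.6, 6.59 and 15.0 CPM, which is at least 754-fold higher when 3 counts over the group are taken as the floor. The others of the 10 were LIPG, an endothelial lipase (log2 fold change 5.58), SERTAD4 (5.46), CYP4F11, a cytochrome P450 (4.50), and EFNA5, an ephrin ligand (4.48).

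The genes that fell most were nearly silent in the AGO1/2 knockout line. ANXA10, an annexin of gastric epithelium, was at 50.2, 48.3 and 50.4 CPM in the AGO1 libraries and had 1 read in all AGO1/2 libraries together, against 10874 reads, a ratio of 11600 with an exact 95% counting interval of 2080 to 458000. ANK3, ankyrin G of the membrane skeleton, was at 8.29, 11.3 and 14.3 CPM and also left 1 read, against 2482 (ratio 2640, interval 474 to 104000). TMEM200A, a membrane protein, was the most steady example, at 113, 111 and 114 CPM against 1.83, 1.93 and 1.63 CPM (62.8-fold lower, log2 fold change -5.97, adjusted p = 1.34e-13). These intervals cover counting error only. SEMA3A, a secreted guidance and repulsion cue, was at 106, 124 and 133 CPM against 2.31, 1.68 and 3.76 CPM (log2 fold change -5.54). MAL2, a protein of apical transport in epithelia, was at 110, 97.3 and 83.2 CPM against 1.76, 1.57 and 1.76 CPM (-5.83). SLC1A3, a glutamate and aspartate transporter, was at 15.0, 13.6 and 11.7 CPM against 0.0999, 0.103 and 0.0917 CPM (-7.07). The rest were TTN, the giant muscle protein titin (-9.10), SAMD3 (-6.50), and the zinc finger genes ZNF704 (-5.57) and ZNF426 (-5.16). No library of either group crossed into the range of the other in these genes, which was a condition of their choice.

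**Figure D2:**
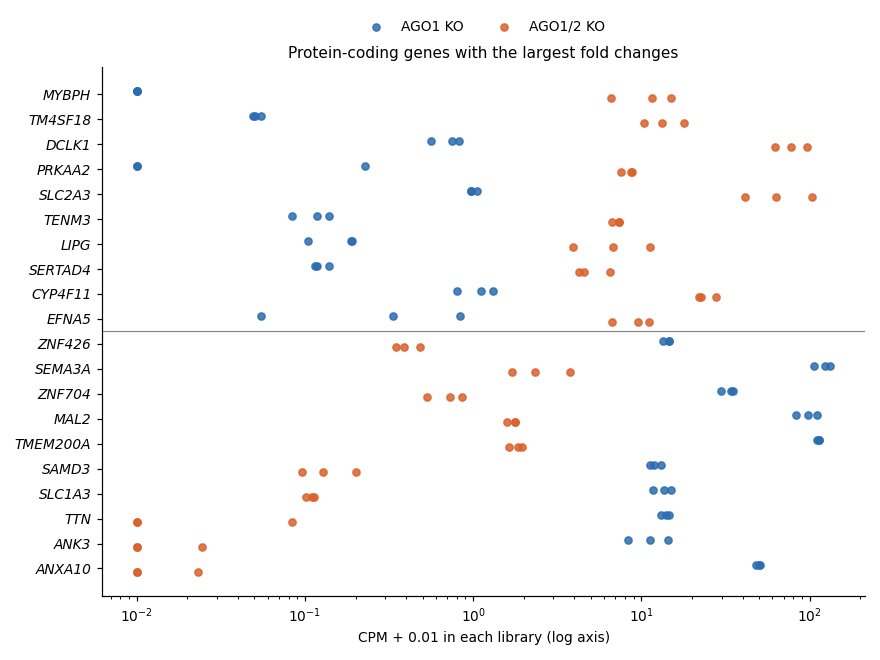
CPM + 0.01 (log axis) in each library of the 10 protein-coding genes with the largest rise and the 10 with the largest fall, points coloured by group. Libraries of a group lie close together and far from the other group, as for DCLK1 (0.548 to 0.814 CPM against 62.4 to 96.7 CPM) and TMEM200A (111 to 114 CPM against 1.63 to 1.93 CPM).

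The AGO2 knockout line, which keeps AGO1, was compared with wild-type cells and gave other values for some of these genes. That contrast, AGO2 knockout minus wild type in cytoplasm, called 2828 genes in all (16.1%; 1244 higher, 7.07%, and 1584 lower, 9.0%). The change in the AGO1-null background differed from that in the wild-type background for 6879 of 17605 genes (39.1%): it was higher for 3668 (20.8%) and lower for 3211 (18.2%). DCLK1, TM4SF18, PRKAA2 and TENM3, which rose in the AGO1-null background, were lower in the AGO2 knockout than in wild-type cells, by -6.22, -5.78, -6.72 and -3.69 on the log2 scale. Their wild-type means were 1.19, 2.17, 6.09 and 1.85 CPM and their AGO2 knockout means 0.0143, 0.0375, 0.0531 and 0.142 CPM, so few reads set the size of these fitted values. For PRKAA2 the wild-type mean was nearer to the level of the AGO1/2 libraries than to that of the AGO1 libraries. The 2 changes therefore had opposite signs, and the differences between them were 13.02, 14.11, 13.52 and 9.76. Other genes moved alike: SEMA3A had -5.15 in the AGO2 knockout (means of 63.6 and 1.8 CPM), ZNF426 -4.14 and ANXA10 -8.90. ANK3 (-0.18), MAL2 (0.05) and SLC1A3 (1.43) were not lower there, and their differences of -10.57, -5.89 and -8.5 were called. Each of the 4 genotypes involved was 1 line, and line and genotype cannot be told apart in this comparison either.

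Lower RNA was frequent along the distal long arm of chromosome 8. Over genes with at least 5 CPM in the higher group, chromosome 8 had a median log2 fold change of -0.34 (369 genes, of which 204, or 55.3%, fell and 75 rose), whereas the medians of the other nuclear chromosomes shown lay between -0.11 on chromosome 4 and 0.10 on chromosome 17. From 70 Mb onward, a position chosen after the values along the chromosome were seen, 164 of 203 genes fell (80.8%) and 8 rose, with a median of -0.69. Before 70 Mb the median was 0.12 over 166 genes (24.1% fell), and over the 10404 genes of other chromosomes 0.01 (32.2% fell). The 3 AGO1/2 libraries had medians of -0.66, -0.66 and -0.71 from 70 Mb onward against the mean of the AGO1 libraries, so no single library carried the shift. It was as large in the nucleus (-0.69) and was -0.04 between the AGO2 knockout and wild type. Set against wild-type cytoplasm, the AGO1 line had 0.03 and the AGO1/2 line -0.62 in the same stretch. AGO2 itself lies there (chr8:140520156-140635633, minus strand), in a window of 10 Mb where 49 of 62 genes fell, and so do MYC, MAL2, ZNF704 and ESRP1. Without all genes of chromosome 8, the comparison called 4788 rising and 4383 falling genes. The AGO2 edit and the clone cannot be told apart in these values.

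**Figure D3:**
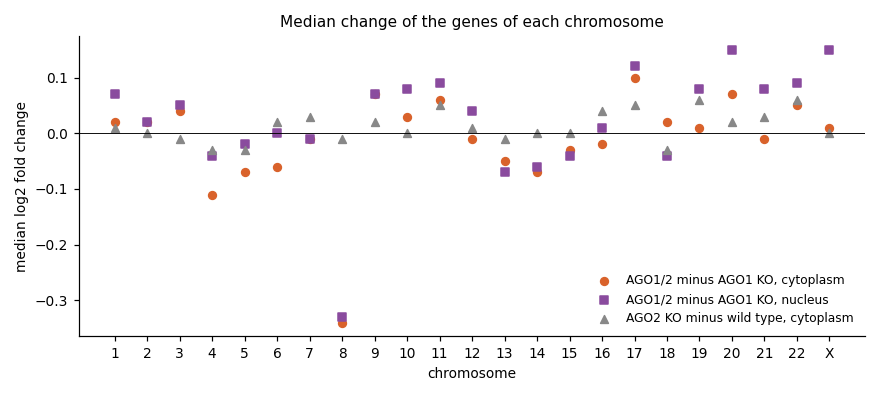
Median log2 fold change of the genes of each chromosome (genes with at least 5 CPM in the higher group) for AGO1/2 minus AGO1 knockout in cytoplasm and nucleus and for AGO2 knockout minus wild type in cytoplasm. Chromosome 8 stands at -0.34 in cytoplasm and -0.33 in nucleus but at -0.01 for the AGO2 knockout against wild type.

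Long noncoding RNAs included a few strong changes. H19, an imprinted transcript that is the precursor of miR-675, rose from 1.15, 0.845 and 1.12 CPM to 7.02, 6.97 and 8.66 CPM (log2 fold change 2.86), and was higher in the nucleus too (1.78). MFSD14CP, a transcribed pseudogene, rose from 5.43, 4.88 and 4.11 CPM to 20.6, 25.6 and 20.5 CPM (2.21), with a nuclear value of -0.19. PURPL, a p53-induced transcript, fell from 4.71, 5.42 and 5.52 CPM to 0.0285, 0.0588 and 0.0262 CPM (-7.05). In each of the 3 genes the groups were far apart, and no overlap between them was a condition of the choice of the genes named here. LINC03040 rose with a wide spread, from 0.877, 1.39 and 1.63 CPM to 7.75, 4.62 and 12.6 CPM (2.68). MSRB3-AS1 (-5.49), ENSG00000261116 (-2.32), ENSG00000251095 (-2.06) and SNHG25 (-1.39) fell, and MSRB3-AS1 was also lower in the AGO2 knockout than in wild type (-4.35). ENSG00000278996 (3.43, not called without AGO1 passage 6 or 7) and ENSG00000275496 (3.30) passed the same rule but are near-identical copies on chromosome 21, so the split of reads between them is uncertain.

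The microRNA families examined are told apart by their seed. The mature sequences of 5 of them, from RefSeq, are printed because their targets or seed groups are described below, with the seed (bases 2 to 8) in capitals.
hsa-let-7a-5p: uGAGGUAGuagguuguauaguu
hsa-miR-20a-5p: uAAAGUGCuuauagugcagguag
hsa-miR-21-5p: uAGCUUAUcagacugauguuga
hsa-miR-200c-3p: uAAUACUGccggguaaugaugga
hsa-miR-24-3p: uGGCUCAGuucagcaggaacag
The matching letters searched on the sense strand of the 3′ UTR were CTACCTC for let-7, GCACTTT for the miR-17 family (miR-20a), ATAAGCT for miR-21, CAGTATT for miR-200b/c and CTGAGCC for miR-24. An 8mer is such a match followed by A. Among 12569 protein-coding genes with a tested MANE Select 3′ UTR, these letters were found in 11.1, 24.3, 9.71, 18.6 and 17.6% respectively. Most 3′ UTRs matched more than 1 family.

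Let-7 targets were more often higher than lower. Of 16 textbook let-7 targets tested, 9 rose and 2 fell, with a median log2 fold change of 0.39 beside 0.0 over all genes. On log2(TPM + 1) 5 rose and the median was 0.07, beside -0.099 over all genes. HMGA2, a chromatin protein of embryonic cells and the best-known let-7 target, was at 275, 285 and 283 CPM in the AGO1 libraries and 585, 716 and 706 CPM in the AGO1/2 libraries (2.38-fold, log2 fold change 1.25, adjusted p = 1.54e-07). Its nuclear RNA changed by 0.22, and the difference between cytoplasm and nucleus was 1.02 (adjusted p = 6.38e-05). IGF2BP1, an RNA-binding protein of fetal tissue, rose from 0.607, 0.889 and 0.814 CPM to 1.73, 1.66 and 1.77 CPM (1.16, adjusted p = 0.000217), a call that was lost with length-scaled counts (0.71, adjusted p = 0.0527) and in limma on log2(TPM + 1) (0.06, adjusted p = 0.205). IGF2BP3, of the same family and named here after its values were seen, fell from 187 ± 17.4 CPM to 89.7 ± 10.2 CPM (SD, n = 3 each), with no overlap between the groups (-1.06, adjusted p = 6.83e-06 by edgeR). HMGA2 and IGF2BP1 hold 4 let-7 matches each and IGF2BP3 holds 1, an 8mer. The 4 of HMGA2, 1 of IGF2BP1 and that of IGF2BP3 (GENCODE release 44, GRCh38, plus strand but for IGF2BP3 on the minus strand) have the seed match in capitals, with the A of an 8mer.
HMGA2, chr12:65963305-65963321: ttcgatttCTACCTCAg
HMGA2, chr12:65964540-65964556: actcaataCTACCTCtg
HMGA2, chr12:65964952-65964968: gcaaagacCTACCTCca
HMGA2, chr12:65965805-65965821: acacactaCTACCTCtt
IGF2BP1, chr17:49051068-49051084: gaagtaaaCTACCTCAa
IGF2BP3, chr7:23311794-23311810: ttactcaaCTACCTCAg
MYC, a transcription factor of growth and also on the list, fell from 334, 360 and 383 CPM to 117, 118 and 130 CPM (-1.56, adjusted p = 1.03e-09); it has no such match in its MANE Select 3′ UTR and lies in the distal stretch with lower RNA described above. THBS1, a matrix glycoprotein that also has no match, was at 10.7, 8.85 and 7.87 CPM against 24.3, 41.3 and 12.4 CPM (1.51).

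Targets of the miR-17 family moved in 1 direction among those called. Of 14 tested, 9 rose and none fell, in edgeR and in DESeq2, with a median of 0.50 (1 was lower in limma on log2(TPM + 1)). CCND1, cyclin D1 of the entry into the cell cycle, rose from 614, 544 and 536 CPM to 1550, 1810 and 1430 CPM (2.83-fold, log2 fold change 1.5, adjusted p = 1.22e-08), and its nuclear change was 1.90. TGFBR2, the type II TGF-beta receptor, rose from 36.0, 38.5 and 39.1 CPM to 64.5, 71.1 and 63.1 CPM (0.81). Its nuclear value was -0.34, a difference of 1.13. BCL2L11, the pro-apoptotic protein BIM, rose from 14.0, 14.0 and 17.2 CPM to 28.9, 30.0 and 29.7 CPM (0.97). MAPK9, the kinase JNK2, rose by 0.68 on the log2 scale. Each of these genes holds 1 match. Those of 3 genes are shown, with the seed match in capitals.
CCND1, chr11:69652288-69652304, plus strand: atttccaaGCACTTTca
BCL2L11, chr2:111166222-111166238, plus strand: tgactagaGCACTTTAc
TGFBR2, chr3:30691859-30691875, plus strand: taacatttGCACTTTAt

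The miR-21 and miR-200 lists held some of the strongest rises. Of 14 miR-21 targets, 7 rose and 3 fell (median 0.29, and -0.02 on log2(TPM + 1), where all genes had -0.099). SMAD7, an inhibitor of TGF-beta signalling, rose from 1.43, 1.53 and 1.6 CPM to 7.79, 8.68 and 8.19 CPM (5.4-fold, log2 fold change 2.43, adjusted p = 2.27e-10), while it was lower in the AGO2 knockout than in wild type (-1.07). RHOB, a small GTPase, rose from 64.0, 67.2 and 78.2 CPM to 247, 248 and 249 CPM (1.83), and SPRY1, an inhibitor of receptor tyrosine kinase signalling, fell (-1.24). MARCKS, an actin-linked substrate of protein kinase C, rose by 2.63 but has no match in its MANE Select 3′ UTR. Of 11 miR-200 targets, 7 rose and 1 fell (median 0.54, with 3 lower on log2(TPM + 1)). ZEB1, the repressor of epithelial genes that is the classic miR-200 target, rose from 8.88, 7.94 and 7.29 CPM to 26.1, 24.5 and 22.5 CPM (1.60, adjusted p = 4.12e-09). WASF3, an actin regulator, rose from 2.13, 2.09 and 2.12 CPM to 9.01, 11 and 8.7 CPM (2.18, against 0.99 in the nucleus). TGFB2, a TGF-beta ligand, rose 19.3-fold, from 0.351, 0.356 and 0.349 CPM to 5.77, 6.85 and 7.8 CPM (adjusted p = 3.07e-11), and JAG1, a Notch ligand, fell from 65.4, 83.7 and 91.3 CPM to 22.5, 18.9 and 28.4 CPM (-1.78). Neither TGFB2 nor JAG1 has a miR-200b/c match in its MANE Select 3′ UTR. Both other miR-21 targets that fell, named here after their values were seen, hold a miR-21 8mer. PDCD4, an inhibitor of translation, fell from 25, 31.0 and 44.2 CPM to 15.6, 11.4 and 24.7 CPM (-0.95, adjusted p = 0.0229), and SPRY2, a relative of SPRY1, from 4.56, 4.68 and 4.66 CPM to 3.13, 3.03 and 3.55 CPM (-0.52, adjusted p = 0.00106). ZEB1 has 6 miR-200b/c matches and WASF3 has 3. Of the other miR-21 targets that rose, also named after their values were seen, RECK (1.18) and TGFBI (3.56) hold 1 miR-21 8mer each. TIMP3 (0.71) holds 2, and TPM1 (0.33) has no match. The 3 8mers of ZEB1 and 1 match of WASF3 are shown. So are the single miR-21 matches of SMAD7 and RHOB, which rose, and of PDCD4 and SPRY2, which fell.
SMAD7, chr18:48920242-48920258, minus strand: actttaacATAAGCTAt
RHOB, chr2:20449374-20449390, plus strand: aaagttctATAAGCTgt
PDCD4, chr10:110898322-110898338, plus strand: atattctaATAAGCTAc
SPRY2, chr13:80336514-80336530, minus strand: tgtattgcATAAGCTAa
ZEB1, chr10:31527625-31527641, plus strand: tatcttatCAGTATTAt
ZEB1, chr10:31528499-31528515, plus strand: ttacctatCAGTATTAt
ZEB1, chr10:31528569-31528585, plus strand: aaacctggCAGTATTAa
WASF3, chr13:26688784-26688800, plus strand: tcatcttgCAGTATTAc

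Across all genes with a seed match, the shifts were far smaller than in the textbook targets. Of the 12569 genes with a MANE Select 3′ UTR, 32.0% rose and 30.5% fell, with a median of 0.02. Genes with a let-7 match (1400 genes) had 36.5% rising and a median of 0.064, and those with a miR-17 family match (3055 genes) 37.3% and 0.07, or 42.7% and 0.145 for the 682 with an 8mer. Genes with a miR-24 match had the highest share among the families counted here, 39.4% rising and 25.2% falling of 2217 genes (median 0.128). MiR-19 followed with 37.9% of 1924 genes (0.092), while miR-21 (32.5% of 1220 genes, 0.001), miR-200b/c (35.2% of 2337 genes, 0.019) and miR-26 (-0.013) stood near the background. The letters GCACTTT of the miR-17 family and TTTGCAC of miR-19 share GCAC, so the groups are not independent. Families known from other tissues had medians of 0.103 (liver miR-122) and 0.108 (muscle miR-133) at one end and -0.026 (blood miR-142) at the other. The length of the 3′ UTR moved with the shift: the median went from -0.036 in the genes with the shortest 3′ UTRs (a median of 256 bases) to 0.0, 0.048 and 0.058 in 3 groups of like number with longer ones (827, 1847 and 4079 bases), and the share of rising genes from 26.8% in genes matching no family to 37.8% in those matching 8 or more. Within these length groups, from short to long, genes with a miR-24 match had medians of 0.088, 0.163, 0.153 and 0.103. Those with a let-7 match had -0.003, 0.062, 0.068 and 0.061, and those with a miR-122 match 0.078, 0.116, 0.138 and 0.096. The part of UTR length in the seed groups was not tested beyond these medians.

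The seed shifts were small, and some families kept 1 sign in the 3 AGO1/2 libraries while others did not. Against the mean of the AGO1 libraries and the median of all genes, genes with a let-7 match were shifted by 0.033, 0.043 and 0.051 on the log2 scale in the 3 AGO1/2 libraries. The miR-24 group had 0.1 ± 0.021 (SD, n = 3), the miR-19 group 0.065 ± 0.01 and the miR-15/16 group 0.055 ± 0.006. The miR-21 and miR-26 groups lay on the other side of 0, at -0.017 ± 0.018 and -0.03 ± 0.022. The miR-200b/c group had -0.026, 0.017 and 0.018, the miR-27 group -0.016, 0.016 and 0.022 and the miR-23 group -0.036, 0.006 and -0.011, so that the spread between cultures was larger than their mean shift. Signs also differed between libraries for the families of miR-221, miR-192, miR-194, miR-182 and miR-216b. MiR-122 and miR-133, as examples from other tissues, had 0.081 ± 0.025 and 0.077 ± 0.015.

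**Figure D4:**
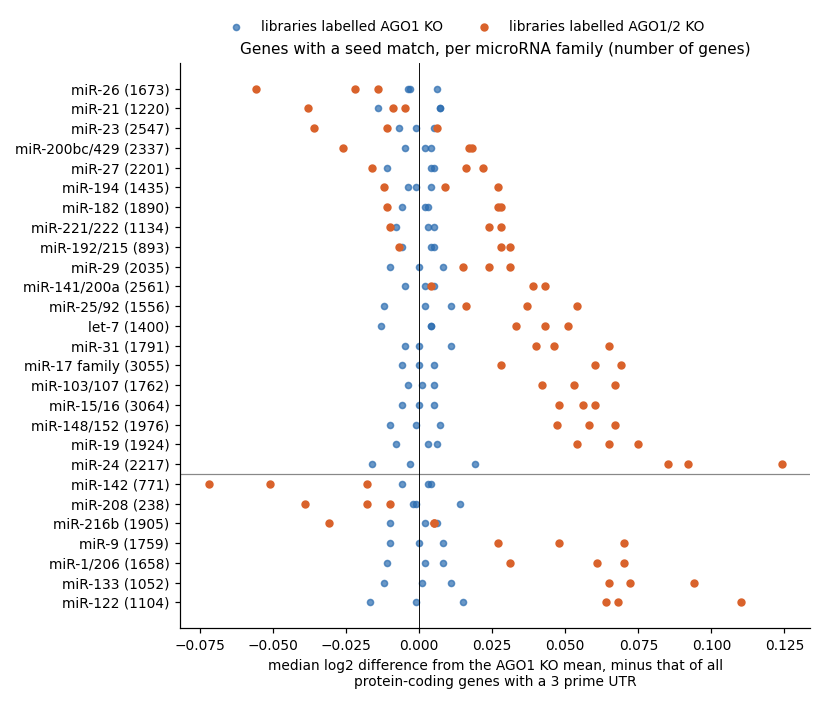
Median log2 shift of genes with a seed match for each of 27 microRNA families, relative to all genes, in every library labelled AGO1 KO and AGO1/2 KO, with the number of genes beside the name and a line setting apart 7 families of other tissues. The shifts of broadly expressed families (miR-24 0.1, let-7 0.042) and of families from other tissues (miR-122 0.081, miR-133 0.077) overlap in size.

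Genes of the microRNA pathway itself were more often lower. Of 15 genes of microRNA processing, 2 rose and 9 fell (median -0.28, with none higher on log2(TPM + 1)). XPO5, which exports precursor microRNAs, fell from 143, 144 and 148 CPM to 79.1, 74.4 and 74.9 CPM (log2 fold change -0.93, adjusted p = 1.47e-07), and DDX5, a helicase of the Drosha complex, from 474, 478 and 481 CPM to 276, 249 and 292 CPM (-0.81). DIS3L2, the nuclease of uridylated precursor let-7, fell by 0.66 on the log2 scale. DICER1, which cuts the precursor to the mature length, went the other way, from 135, 131 and 117 CPM to 192, 202 and 188 CPM (0.61, adjusted p = 0.00188), but was not called in limma on log2(TPM + 1) (0.28, adjusted p = 0.119). Among 26 genes of deadenylation and decapping 5 rose and 13 fell (median -0.12), with the decapping cofactor DCP1B at -1.0 and the decapping enzyme DCP2 at 0.77, the decapping activator PATL1 at 0.76 and the CCR4-NOT deadenylase subunit CNOT7 at 0.63 (not called in limma on log2(TPM + 1)). Without AGO1/2 passage 10, the number that rose was 8. Of the 3 TNRC6 scaffold genes, TNRC6B fell, from 175, 193 and 214 CPM to 143, 117 and 170 CPM (-0.44, adjusted p = 0.00398), and the other 2 were not called. Host genes of microRNAs were called in both directions, 10 of 18 higher and 5 lower (median 0.37; the number lower was 3 without AGO1 passage 7 or without AGO1/2 passage 11). CTDSPL, host of miR-26a-1, rose from 34.7, 34.0 and 32.7 CPM to 153, 181 and 149 CPM (2.25), and MIR31HG (1.76) and DLEU2 (0.98), noncoding hosts of miR-31 and of miR-15a and miR-16-1, rose in cytoplasm while their nuclear values were -0.11 and -0.71.

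Mesenchymal genes were more often higher than lower, and epithelial genes more often lower than higher. Of 23 mesenchymal genes 14 rose and 4 fell (median 0.90), and of 28 epithelial genes 4 rose and 13 fell (median -0.40, with 2 higher on log2(TPM + 1)). S100A4, a calcium-binding protein of motile cells, rose from 12.2, 14.8 and 16.9 CPM to 119, 88.5 and 179 CPM (log2 fold change 3.14). SPARC, a matrix-binding protein, was at 0.148, 0.222 and 0.581 CPM against 3.37, 2.06 and 9.4 CPM (3.94), and L1CAM, an adhesion molecule of invading cells, at 6.29, 7.8 and 9.31 CPM against 47.3, 45.9 and 46.9 CPM (2.58). CDH1, the epithelial cadherin, fell from 23.8, 28.4 and 35.3 CPM to 6.81, 6.28 and 12.0 CPM (-1.80, adjusted p = 3.61e-05). The desmosome protein PKP3 (-1.97), the epithelial splicing regulator ESRP1 (-2.01) and the adhesion molecule EPCAM (-1.10) fell too. In each of these genes the groups did not overlap. KRT80, an epithelial keratin on the same list, rose from 1.12, 0.949 and 0.917 CPM to 19, 22.8 and 14.7 CPM (4.24), and KRT7 rose by 3.32, so the list did not move as a whole. In the nucleus epithelial genes were called 12 times higher and 10 times lower (median 0.25), and mesenchymal genes 18 times higher and 3 times lower (1.18). Over all genes the nuclear shares were 24.3% higher and 36.3% lower, with a median of -0.15. Without genes of chromosome 8, 4 of 26 epithelial genes rose and 12 fell (median -0.26). In the AGO2 knockout against wild type, 1 mesenchymal gene was higher and 7 were lower (median -0.57), and 18 of the 23 changes differed from those in the AGO1-null background.

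Markers of other cell types were scarce. For 15 markers of blood, vessel, stroma and other non-epithelial cells, levels were summed without TMM. The sum was 7.44 to 9.39 CPM in the AGO1 and 12.6 to 16.6 CPM in the AGO1/2 libraries. CD3E, DCN, LUM and COL1A2 were at 0 in both groups, HBB in the AGO1 libraries, and PTPRC and CDH5 in the AGO1/2 libraries. Of the 4 markers that passed the filter on low counts 2 rose (1 without AGO1 passage 6 or 8 or AGO1/2 passage 9 or 11), among them CD68, a lysosomal protein, from 1.62, 1.3 and 1.51 CPM to 9.96, 9.43 and 10.6 CPM (log2 fold change 2.76).

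Genes of TGF-beta and Wnt signalling were also mostly higher. Of 27 genes of TGF-beta signalling and response 15 rose and 4 fell (median 0.47), and of 14 Wnt target genes 9 rose and 2 fell (median 0.51). Besides TGFB2 and SMAD7, CCN2, a matricellular response gene, rose from between 0.949 and 1.26 CPM to 7.58, 12.6 and 5.75 CPM (log2 fold change 3.0), and SMAD6, an inhibitory SMAD, from 1.61, 2.1 and 2.49 CPM to 10.1, 9.57 and 11.7 CPM (2.34). LTBP1, which holds latent TGF-beta in the matrix, fell from 6.21, 8.06 and 9.78 CPM to 0.485, 0.691 and 0.642 CPM (-3.72). The members thus included ligand and inhibitors that rose together. Of the Wnt genes, NOTUM, a secreted inhibitor of Wnt ligands, rose from 2.13, 2.82 and 3.09 CPM to 12.9, 11.9 and 11.8 CPM (2.18), and the transcription factor SP5 by 1.51. TNFRSF19, a receptor induced by Wnt, fell from 1.46, 1.44 and 1.49 CPM to 0.0999, 0.132 and 0.197 CPM (-3.33). In the AGO2 knockout against wild type no Wnt gene was higher and 6 were lower (median -0.46), and 13 of the 14 changes differed between the backgrounds.

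**Figure D5:**
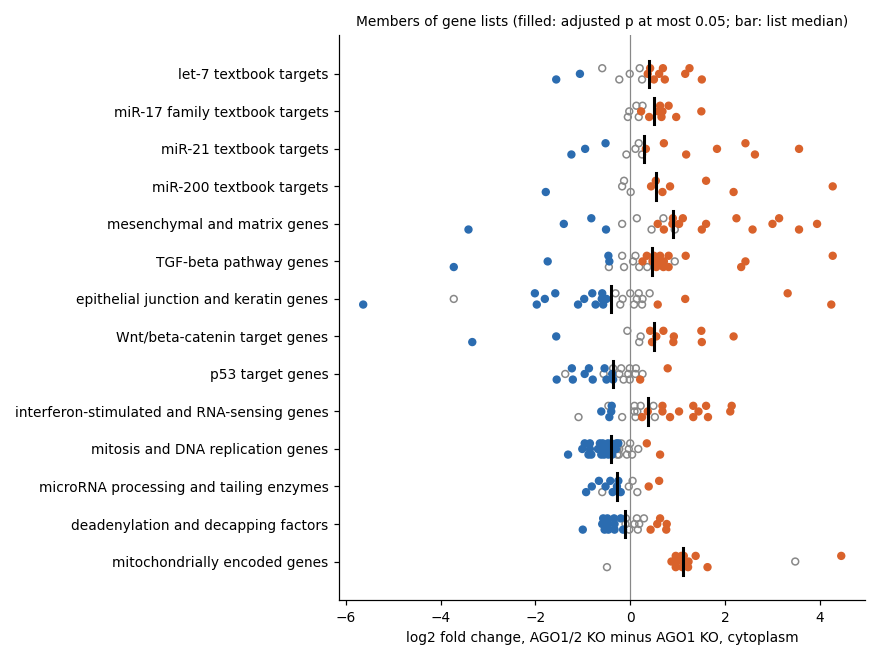
Log2 fold change (AGO1/2 over AGO1 knockout, cytoplasm) of every tested member of 14 gene lists, filled where called at an adjusted p of 0.05, with a bar at the median of each list. Mesenchymal genes have a median of 0.90 and epithelial genes of -0.40, the miR-17 targets 0.50 and mitosis and replication genes -0.40, beside 0.0 over all genes tested.

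Genes of mitosis and DNA replication fell in cytoplasm. Of 34 tested, 22 fell and 2 rose (median -0.40), and 1 rose without AGO1 passage 8 or without AGO1/2 passage 9 or 10. RRM1, the large subunit of ribonucleotide reductase, fell from 188, 187 and 192 CPM to 82.2, 73.7 and 73.0 CPM (2.48-fold lower, log2 fold change -1.31, adjusted p = 1.87e-08). MCM6, MCM7 and MCM5, subunits of the replicative helicase, fell by 1.01, 0.96 and 0.88 on the log2 scale, with groups of 213 to 227 against 101 to 113 CPM for MCM6. Their RNA changed less in the nucleus, with differences between the fractions of -0.91 for RRM1 (adjusted p = 0.000104), -0.77 for MCM6, -0.72 for MCM7 and -0.58 for MCM5. In the nucleus the list had 10 higher and 11 lower members (median -0.04, beside -0.15 over all genes). Of its members 23 differed between the fractions, beside 27.8% of all genes. No member was higher and 2 were lower in the AGO2 knockout against wild type (median 0.05).

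Of 24 p53 target genes 10 fell and 2 rose (median -0.36), and 1 rose when any 1 library other than AGO1 passage 7 was left out. DDB2, a DNA damage sensor, fell from 54.1, 53.5 and 58.7 CPM to 19.6, 17.7 and 19.7 CPM (log2 fold change -1.55), and FDXR, a mitochondrial reductase, from 71.0, 70.7 and 81.1 CPM to 34.2, 27.4 and 33.5 CPM (-1.23). RRM2B, a ribonucleotide reductase subunit encoded on chromosome 8, fell by 1.21 and the kinase PLK3 by 0.96. Interferon-stimulated genes went the other way, with 13 of 27 rising and 4 falling (median 0.37, and 0.01 on log2(TPM + 1), where all genes had -0.099). TLR3, a sensor of double-stranded RNA, rose from 1.48, 2.31 and 1.83 CPM to 5.64, 5.87 and 5.5 CPM (1.60), BST2, a tether of budding virus, by 2.11, and IFIT2 by 1.64. IFI6, a protein of mitochondria and endoplasmic reticulum, was at 3.9, 5.59 and 6.81 CPM against 12.8, 10.6 and 17.5 CPM (1.33). In these named genes the groups did not overlap.

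Mitochondrially encoded transcripts were higher in cytoplasm and not in the nucleus. Of 15 tested 13 rose and none fell (median 1.12). In the nuclear libraries none was higher and 7 were lower (median -0.39), beside 24.3% higher and 36.3% lower over all genes (median -0.15). The change differed between the fractions for 12 of the 15, beside 27.8% of all genes. MT-ND5, a subunit of respiratory complex I, was at 5290, 5260 and 4800 CPM against 13200, 16200 and 10500 CPM (log2 fold change 1.38). MT-ND3, of the same complex, was at 850, 729 and 599 CPM against 2140, 3010 and 1600 CPM (1.63). MT-RNR1, the small ribosomal RNA of mitochondria, was uneven because its reads came mostly from 1 library, at 0.337, 15.5 and 10.8 CPM against 572, 0.456 and 9.28 CPM, and its value turned from 4.45 to -0.84 without AGO1/2 passage 9.

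The change with AGO2 loss differed between cytoplasm and nucleus for 5350 of 19216 genes (27.8%), higher in cytoplasm for 2830 (14.7%) and lower for 2520 (13.1%). In the nucleus itself 4660 genes were higher (24.3%) and 6970 lower (36.3%), together 11630 (60.5%), with a median of -0.15. These counts share the cytoplasmic libraries with the comparison above. MAP4K5, a kinase of the JNK pathway, rose in cytoplasm from 8.53, 9.35 and 8.32 CPM to 43.8, 47.8 and 44.3 CPM (log2 fold change 2.38) and had 0.07 in the nucleus. FKBP10, a collagen chaperone, rose from 4.04, 3.68 and 3.35 CPM to 21.7, 19.7 and 28.8 CPM (2.67), with 0.54 in the nucleus. BSCL2, the lipid droplet protein seipin, had 1.35 and -0.49. LMAN1, a cargo receptor of the early secretory pathway, fell in both fractions and further in cytoplasm, from 130, 124 and 118 CPM to 6.02, 5.76 and 6.68 CPM (-4.33, with -2.64 in the nucleus). RECQL, a DNA helicase, did likewise (38.1, 37.7 and 38.8 CPM against 2.1, 1.78 and 1.99 CPM, -4.28 and -2.65). CR2, a complement receptor, had -4.83 and -3.67, a difference whose call was lost when any of 10 single libraries was left out, and EPRS1, a tRNA synthetase, -1.51 and -0.45. RTEL1-TNFRSF6B and COMMD3-BMI1 also passed the rule, but they are readthrough genes that share reads with their neighbours and their values are uncertain. MALAT1, a nuclear-retained RNA, was at 1180, 1230 and 1140 CPM against 1120, 1150 and 1140 CPM in cytoplasm (-0.06, adjusted p = 0.71) and at -0.77 in the nucleus.

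All 4 metallothionein genes tested rose (median 0.89), among them MT1F (1.17) and MT1X (1.13). HOX genes, which set position along the body axis, rose in 17 and fell in 5 of 28 cases (median 0.64), with HOXC4 at 2.94, HOXC6 at 1.59 and HOXA4 at -1.03. Zinc finger genes of chromosome 19 fell in 84 and rose in 13 of 165 cases (median -0.24, with 3 higher on log2(TPM + 1)), led by ZNF550 (-3.69), and 3 were higher and 51 lower in the AGO2 knockout against wild type. Ribosomal protein genes were called 34 times lower and 7 times higher of 81, with a median of only -0.11, and on log2(TPM + 1) the median was -0.39 with 72 lower and none higher. NRF2 target genes had 9 of 18 rising and 3 falling (median 0.28), with the ferritin chains FTL (1.30) and FTH1 (1.14) in front. On log2(TPM + 1) 5 of them rose and their median was 0.0, beside -0.099 over all genes. Of 7 genes of DNA methylation and demethylation 1 rose, the demethylase TET1 (0.88), and 3 fell, among them the maintenance methyltransferase DNMT1, from 309, 288 and 337 CPM to 170, 153 and 165 CPM (-0.94). In the 22 immediate early genes 5 rose and 9 fell (median -0.35), with the AP-1 subunit FOSL1 at 1.32 and the zinc finger factor EGR1 at -1.26 (not called without AGO1 passage 7 or 8 or AGO1/2 passage 9 or 10), and the number lower dropped to 5 without AGO1 passage 8 or without AGO1/2 passage 9 or 10.

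The remaining lists had no clear direction or one that changed with the scale, and on log2(TPM + 1) the median of all genes was -0.099. Of 28 cholesterol synthesis genes 8 rose and 2 fell (median 0.16, but -0.12 on log2(TPM + 1), with 14 rising without AGO1/2 passage 10 and 6 falling without passage 11). INSIG1, a sterol-sensing regulator of cholesterol synthesis, rose (2.07). Glycolysis genes were split, 10 rising and 9 falling of 24 (median 0.08, -0.2 on log2(TPM + 1)), with the enolase ENO2 at 2.37 and the hexokinase HK2 at -1.20. Genes of the integrated stress response had 4 of 23 in each direction (median -0.07), with the asparagine synthetase ASNS at -1.63. ASNS was not called without AGO1 passage 8 (-1.11, adjusted p = 0.111 by edgeR) or without AGO1/2 passage 9 (0.0601) or 10 (0.0782). ERK target genes had 6 of 21 in each direction (median 0.12, -0.1 on log2(TPM + 1), 3 lower without AGO1 passage 8 or without AGO1/2 passage 9 or 10). Collagens had 6 rising and 4 falling of 15, with COL13A1 at 3.73 and COL4A6 at -4.49, and hosts of small nucleolar RNAs 5 and 9 of 25 (median 0.01, but -0.24 on log2(TPM + 1) and -0.13 with 3 rising without AGO1/2 passage 10), of which 20 differed from the nucleus, where all 25 were lower. Of 56 replication-dependent histone genes 9 fell and none rose (median -0.21), a count that ran from 5 without AGO1 passage 6 or 8 or AGO1/2 passage 11 to 20 in a fit of these 6 libraries alone. Clustered protocadherins had 8 of 20 rising (median 0.16), and with a mean of at least 50 counts required 1 rose. Of 5 cancer-testis genes 2 fell (median -0.20), with PRAME at -1.25, of 5 colon epithelial markers tested 2 fell (median 0.14), and of 5 nuclear-retained RNAs none was called by edgeR (median 0.14), whereas 4 were lower in the nucleus. Over all genes 36.3% were lower in the nucleus, with a median of -0.15.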

How the data were processed

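Per the submitters' processing notes, reads from stranded, paired-end libraries of RNA depleted of ribosomal RNA were processed with STAR 2.5.3a, Salmon 0.11.0 and DESeq2 on hg38. The deposited estimated counts are the reads that Salmon assigned to each transcript, not normalized; the deposited TPM values were scaled by the authors with Salmon for effective length and library total. Of 200401 transcripts, 196040 (97.82%) matched GENCODE release 44 by identifier. The others (2.232 to 2.644% of reads in the 6 libraries compared, 3.117 to 4.01% in the nuclear libraries used) were left out. Depth was 68161346 to 79731793 estimated reads for each of the 6 libraries compared. It was 39476205 to 43281746 in wild-type cytoplasm, 31252459 to 32282444 in AGO1 knockout nuclei and 47780524 to 54097984 in AGO1/2 knockout nuclei.

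Estimated counts were summed per gene and rounded. All 15 cytoplasmic libraries were fitted together in edgeR 4.0.16 (R 4.3.3; TMM, filterByExpr with a minimum count of 10, quasi-likelihood test, Benjamini-Hochberg adjusted p of 0.05). Nuclear libraries entered in a fit of both fractions (12 libraries), and the fraction and background differences were contrasts in edgeR. Pairing by passage was checked by correlating, across genes, how the nuclear and the cytoplasmic library of a passage deviated from their group means. The correlations were 0.108, 0.034 and 0.093 in AGO1 knockout and -0.028, 0.137 and 0.227 in AGO1/2 knockout cells. They do not exclude pairing. The main fit used no block, and a fit with culture as block, with 7765 calls, is described below. Alternatives were DESeq2 1.42.0, limma 3.58.1 on log2(TPM + 1) and log2(TPM + 0.1), RLE factors, other filters, length-scaled counts, fewer libraries and each library left out. Seed matches were searched in MANE Select 3′ UTRs of GENCODE release 44; mature microRNAs came from RefSeq.

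Genes named were AGO1 to AGO4; the 10 protein-coding genes with the largest called change in each direction, at least 5 CPM in the higher group and no overlap; up to 4 called members of each of 36 lists with at least 1 CPM, or the most abundant member where none was called; up to 5 genes in each direction for each difference test and for long noncoding RNAs; and up to 3 genes for each microRNA family by 8mer matches. The genes of the difference tests, all protein-coding, and the long noncoding RNAs also had at least 5 CPM in the higher group. No overlap between the cytoplasmic groups was required of them too. The members and lists were chosen with earlier results of these data known. The 8 eCLIP libraries, precipitates and inputs, were not analysed here.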

Additional observations from a re-analysis of the deposited data

Results flagged for a closer look

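The difference between cytoplasm and nucleus in the change between the 2 lines was called by edgeR's interaction test for 5350 genes. Genes named were protein-coding, with at least 5 CPM in the higher group and no overlap between the groups in cytoplasm, so others may differ more. Differences are given as cytoplasmic minus nuclear log2 fold change. On the higher side the largest were MAP4K5 (2.29), FKBP10 (2.11), MT-ND3 (2.09), BSCL2 (1.84) and RTEL1-TNFRSF6B (1.77). On the lower side they were LMAN1 (-1.69), RECQL (-1.65), COMMD3-BMI1 (-1.36), CR2 (-1.17) and EPRS1 (-1.07).

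The difference between the AGO1-null and the wild-type background in the change with AGO2 loss was called for 6879 genes. Differences are the log2 fold change in the AGO1-null minus that in the wild-type background. Among protein-coding genes under the same conditions, the largest were TM4SF18 (14.11), PRKAA2 (13.52), DCLK1 (13.02), MYBPH (11.52) and TENM3 (9.76). In the other direction they were ANK3 (-10.57), SLC1A3 (-8.5), ZNF704 (-6.31), ADGRF1 (-5.99) and MAL2 (-5.89). Several of these genes have a group at or near 0 reads, so the fitted size depends on the prior count and is no bound. The difference for MYBPH was 7.08 and not called without wild-type replicate 27. ADGRF1, an adhesion receptor, fell in the AGO1-null background from 33.5, 30.8 and 27.3 CPM to 1.94, 1.43 and 1.35 CPM and was higher by 1.71 in the AGO2 knockout than in wild type.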

How the results depend on the processing

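The count of genes called between the 2 lines was 9555 and lay between 8470 (mean count of at least 50) and 9557 (DESeq2) under the alternatives, and between 8586 and 9107 with each library left out. The count for the difference between fractions was 5350. It ran from 4324 to 5617 with each library left out, was 5758 without the filter on low counts, where 29.8% of calls were higher against 52.9%, and 4771 with length-scaled counts (44.4% higher). It moved to 9545 with limma on log2(TPM + 1), of which 18.3% were higher, and to 8586 on log2(TPM + 0.1), of which 10.9% were higher. The medians of all genes were then -0.223 and -0.381; the cause was not tested. The count for the difference between backgrounds was 6879, 7129 with DESeq2, 5353 and 5590 with limma, and 6036 to 6948 with each library left out. With culture as a replicate block the fraction difference had 7765 calls, of which 5283 were shared with the unpaired fit. The 6 correlations of paired passages lay between -0.028 and 0.227. The lines compared in cytoplasm share no passage number.

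For 191 of 236 values of named genes, direction and call were kept under every alternative run. In 19 cases, in 10 genes, an alternative changed the sign. AGO2 was -0.15 and -0.16 on log2(TPM + 1) and log2(TPM + 0.1), where the medians of all genes were -0.099 and -0.214. On the same 2 scales DESI1 was -0.3 and -0.33, FNIP1 -0.08 and -0.1, HEBP2 -0.08 and -0.08, N4BP1 -0.27 and -0.3, PURA -0.01 and -0.01, and ZBTB37 -0.01 and -0.02. With length-scaled counts DESI1 was -0.1, GRIN2B 0.02 and N4BP1 -0.04. The fraction difference of CR2 was 0.2 on log2(TPM + 1), and MT-RNR1 ran from -0.84 without AGO1/2 knockout replicate 9 to 5.12 without AGO1 knockout replicate 7. The cause was not tested. With 3 cultures of 1 line per genotype, depth was not the main limit in the cytoplasmic comparison of the 2 lines. There, genes under a few CPM carry counting error, and all other precision comes from the spread between cultures. The wild-type and nuclear libraries, used for the background and fraction differences, were shallower.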

Other observations

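Genes named for the number of miR-24 8mers in their 3′ UTR were called in both directions. ZDHHC18, a palmitoyltransferase, rose (log2 fold change 1.42) while KSR2, a scaffold of the RAS pathway, fell (-1.31). RUBCNL, the third, fell from 75 reads in the AGO1 libraries to 1 in the AGO1/2 libraries, a ratio of 79.9 with an exact 95% counting interval of 13.9 to 3200, and was not called in limma on log2(TPM + 1). One of the ZDHHC18 matches, on GRCh38 and the plus strand, is shown with the 8mer in capitals.
ZDHHC18, chr1:26854198-26854214: gggccttgCTGAGCCAg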
